A study of Mus musculus with 48 samples.

Results

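The 10 genes described here encode the carriers that move bile acids and phosphatidylcholine across the hepatocyte membrane. They were chosen by name and found by the Ensembl identifier of each mouse symbol among the 55416 genes counted in every liver. By role they are 4 uptake carriers (Slc10a1, Slco1a1, Slco1a4 and Slco1b2), 3 canalicular exporters (Abcb11, Abcb4 and Abcc2) and 3 genes of basolateral efflux (Abcc3, Abcc4 and Slc51b). RNA was sequenced from 48 livers in 2 studies, each with 8 WT, 8 HET and 8 HOM littermates. In the DN study the mice carried no, 1 or 2 copies of LXRα W441R, a CRISPR knock-in substitution made in C57BL/6J embryos that makes the receptor dominant negative, and these mice were male. In the KO study they had 2, 1 or no working copies of the LXRα gene, from an allele first kept on a mixed Sv129/C57Bl/6 background and then crossed for more than 10 generations to C57BL/6. All mice ate a western diet with 0.2% cholesterol for 8 weeks, so that no group shows these genes on chow. In both studies they began it at about 8 weeks of age, and livers were taken at 16 weeks. Both alleles are carried in every cell, so the hepatocyte and the other liver cells bear them alike.

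Bile acids return to the liver in portal blood and enter hepatocytes through the sodium-dependent carrier NTCP (Slc10a1) and the sodium-independent carriers of the Slco family. They leave through the canalicular membrane, where the bile salt export pump (Abcb11) secretes bile salts, MDR3 (Abcb4, also called Mdr2) flips phosphatidylcholine to the bile side, and MRP2 (Abcc2) exports conjugated organic anions. Another route runs back to the blood across the basolateral membrane, through MRP3 (Abcc3), MRP4 (Abcc4) and the heterodimer OSTα/OSTβ, whose β subunit is Slc51b. In cholestasis this balance is known to shift from uptake towards basolateral efflux. Several of these genes are targets of the bile acid receptor FXR (Nr1h4), and Abcc2 and Abcc4 also of the oxidative stress factor NRF2.

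Sequencing depth was 5332897 to 16961379 reads on genes per liver (median 15879972). Levels are given in CPM, counts per 1000000 reads on genes after the library size was multiplied by its TMM factor, which was 1.21 to 1.34 in the 7 DN:HOM livers compared, so that their levels stand lower than plain counts per 1000000 reads would. DN:WT animal 10 and DN:HOM animal 12 went with the other genotype: the cholangiocyte markers summed to 1188 CPM in animal 10, where the other DN:WT livers had 43.6 to 81.2 CPM, and to 58.3 CPM in animal 12, where the other DN:HOM livers had 749 to 1091 CPM. Nr1h3, the LXRα gene, was at 71.3 CPM in animal 10 against 82.1 to 96.9 CPM in the other DN:WT livers and at 86.9 CPM in animal 12 against 68.5 to 77.4 CPM in the other DN:HOM livers, but this rests on the TMM factors: per 1000000 reads without them animal 10, at 89.2, lay within the other DN:WT livers (76.9 to 92.2), animal 12 was at 80.5, and the other DN:HOM livers had 88.4 to 97.4. The knock-in leaves the gene in place, so its level does not check the DN labels. For Nr0b2, Abcb11, Cyp8b1, Slc27a5 and Baat, all of the study's own DN values matched livers other than animals 10 and 12. For Slc51b 5 of 7 DN:WT values matched, and for Slc10a1 none did in any DN group. Whether those remaining values leave out animals 10 and 12 could therefore not be checked. The values below are therefore for the other 46 livers (7 DN:WT, 8 DN:HET, 7 DN:HOM and 8 of each KO group), and each call that is lost when all 48 livers enter under their labels is given beside the result, or for lists as the counts of both fits. In KO:HOM livers Nr1h3 was at 27 ± 1.99 CPM (SD, n = 8) against 93.6 ± 8.82 CPM in KO:WT, and in KO:HET livers at 59.2 ± 5.63 CPM. All 48 livers expressed 4 Y-linked genes above 10 CPM, and the highest Xist level was 0.481 CPM. The 8 hepatocyte markers summed to between 50540 and 116100 CPM over the 46 livers.

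**Figure D1:**
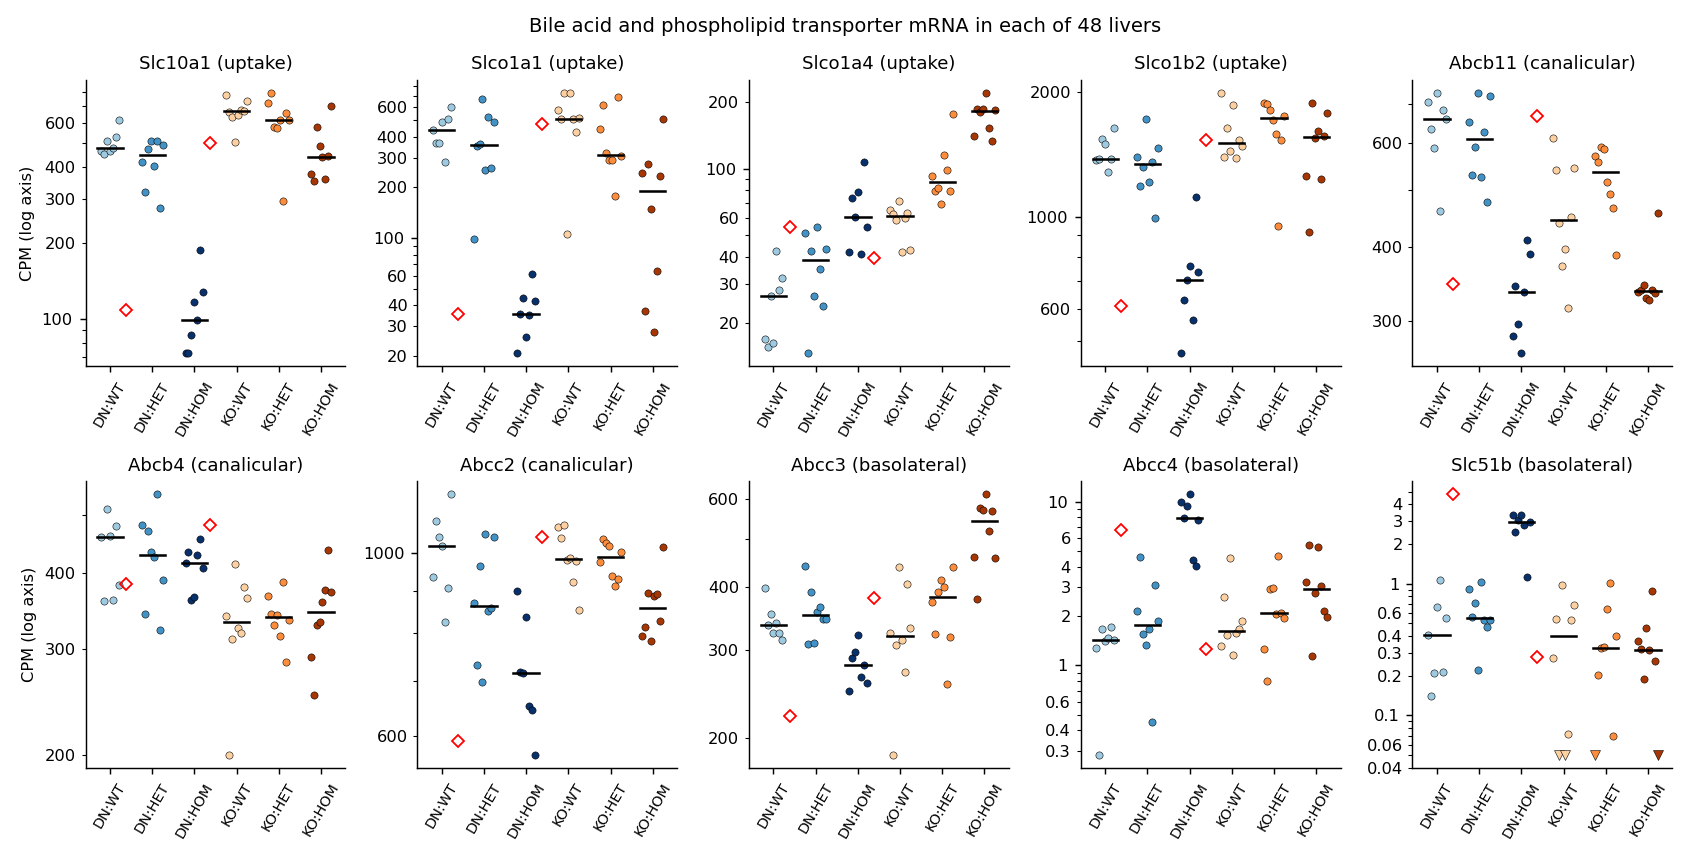
Level of each transporter in every liver, in CPM on a log axis, by group. Filled points are the 46 livers compared and bars their medians; open red diamonds are DN:WT animal 10 and DN:HOM animal 12; triangles in the Slc51b panel are livers with 0 reads. The points of DN:HOM lie below those of DN:WT for Slc10a1, Slco1a1, Slco1b2 and Abcb11 and above them for Abcc4 and Slc51b.

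In DN:HOM against DN:WT livers 9 of the 10 transporters differed. Slc10a1, Slco1a1, Slco1b2, Abcb11, Abcc2 and Abcc3 were lower, Slco1a4, Abcc4 and Slc51b were higher, and Abcb4 did not pass the test (edgeR's quasi-likelihood test, Benjamini-Hochberg adjustment over 15711 genes). This comparison called 59.1% of all genes tested, 29.1% of them higher and 30% lower, so a count of 9 is to be read against a background in which most genes moved. Values of the groups did not overlap for 6 members, against 33.5% of all genes; with all 48 livers this was so for 0 members and 0.115% of all genes. With all 48 livers 7 members passed, where 48% of all genes did, and Abcc3 (adjusted p = 0.30) and Slc51b (adjusted p = 0.060) did not. The median change of the 10 members was -0.37 on the log2 scale, while that of the 4 uptake genes was -1.60 and that of the 3 basolateral genes 2.53. With all 48 livers these medians were -0.24, -1.12 and 1.22.

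In KO:HOM against KO:WT livers 5 of 10 differed. Slc10a1, Slco1a1 and Abcb11 were lower and Slco1a4 and Abcc3 were higher. The background was 19.4% of all genes called, with 11.5% higher and 7.87% lower. Only Slco1a4 had no overlap between the groups, against 2.55% of all genes. With the 2 DN livers back in the joint fit, which shares 1 estimate of spread, the SE of Slc10a1 in KO was 0.28 in place of 0.17, and Slco1a4 and Abcc3 alone passed in the KO study, with 12.9% of all genes called.

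**Figure D2:**
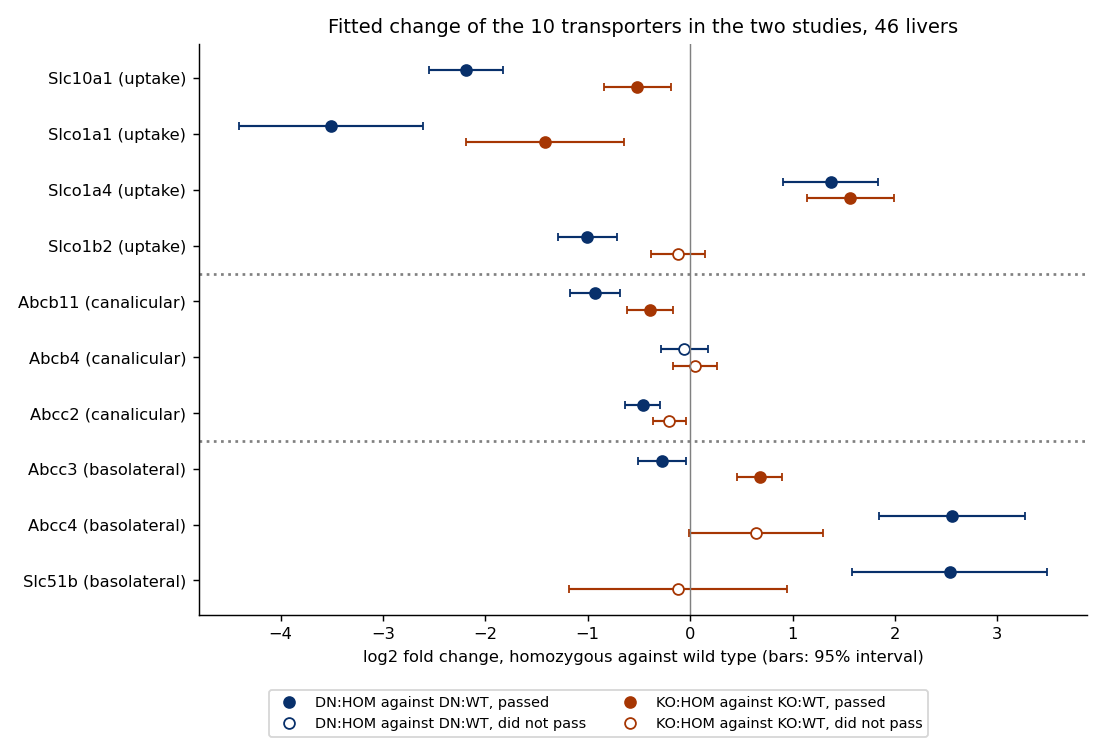
Fitted log2 fold change of each transporter in homozygous against wild-type livers, DN in blue and KO in brown, with bars for the 95% interval; filled points passed the test and open points did not. Slco1a4 moved alike in the studies (1.37 and 1.56), Abcc3 moved in opposite directions (-0.28 and 0.68), and Abcc4 and Slc51b passed in DN alone.

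Slc10a1 (chr12:80996372-81015479, minus strand, GRCm39) encodes the main carrier of conjugated bile salts from blood. It had 453 to 619 CPM in DN:WT livers (median 476), 274 to 511 CPM in DN:HET (median 446) and 72.7 to 188 CPM in DN:HOM (median 99.0). Every DN:HOM liver was below every DN:WT and every DN:HET liver. The change was 4.57-fold, -2.19 on the log2 scale (SE 0.19, adjusted p = 1.5e-13), and -1.52 with all 48 livers (adjusted p = 6.9e-05). Among KO livers the levels were 506 to 776 CPM in KO:WT (median 670), 293 to 793 CPM in KO:HET (median 619) and 353 to 700 CPM in KO:HOM (median 440.8), with overlapping groups. KO:HOM was lower than KO:WT by 0.52 on the log2 scale (SE 0.17, adjusted p = 0.022), and this call was lost with all 48 livers (adjusted p = 0.23).

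Slco1a1 (chr6:141853007-141892690, minus strand) encodes OATP1A1, a carrier of bile acids and steroid conjugates that is higher in male than in female mouse liver. Its levels were 283 to 597 CPM in DN:WT (median 438), 99.4 to 669 CPM in DN:HET (median 356) and 20.8 to 61.6 CPM in DN:HOM (median 35.7). The DN:HOM livers lay below all others of the study, at a change of 11.4-fold, -3.51 on the log2 scale (SE 0.46, adjusted p = 1.2e-08), and -2.06 with all 48 livers (adjusted p = 0.0025). In KO:HOM livers Slco1a1 ran from 27.7 to 507 CPM (median 192), with animals 11, 22 and 26 at 37.2, 27.7 and 63.9 CPM and animal 30 at 507 CPM. KO:WT livers had 106 to 727 CPM (median 511), where animal 23 was the one at 106 CPM, and KO:HET livers 179 to 690 CPM (median 313). KO:HOM was lower than KO:WT by 1.42 on the log2 scale (SE 0.40, adjusted p = 0.0079; 0.078 with all 48 livers).

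Slco1a4 (chr6:141751165-141802036, minus strand) encodes OATP1A4, which takes up bile acids and cardiac glycosides, and was the uptake gene that rose. It had 15.6 to 42.5 CPM in DN:WT (median 26.5), 14.6 to 54.4 CPM in DN:HET (median 38.8) and 41.0 to 107 CPM in DN:HOM (median 60.2). The lowest DN:HOM liver was just under the highest DN:WT liver. KO livers had 42.2 to 71.7 CPM in KO:WT (median 61.1), 69.2 to 177 CPM in KO:HET (median 87.2) and 133 to 220 CPM in KO:HOM (median 183). Every KO:HOM liver was above every KO:WT liver. The changes were 1.37 in DN (SE 0.24, adjusted p = 2.9e-06) and 1.56 in KO (SE 0.22, adjusted p = 2.2e-06) on the log2 scale, and the difference between them was -0.19 (95% interval -0.81 to 0.43, adjusted p = 0.68). Slco1a1 and Slco1a4 lie side by side on chromosome 6 with related copies, so reads shared between these genes may have been lost in counting; the copies Slco1a5 and Slco1a6 were at or below a mean of 0.123 CPM in DN:WT, DN:HOM, KO:WT and KO:HOM.

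Slco1b2 (chr6:141575179-141633546, plus strand) encodes OATP1B2, the carrier for unconjugated bile acids and bilirubin. It had 1283 to 1634 CPM in DN:WT (median 1378), 994 to 1717 CPM in DN:HET (median 1337) and 468 to 1117 CPM in DN:HOM (median 703), and the highest DN:HOM value, of animal 33, was below all DN:WT values. The change was -1.004 on the log2 scale (SE 0.15, adjusted p = 1.4e-07). KO:WT livers had 1387 to 1988 CPM (median 1503), KO:HET livers 947 to 1880 CPM (median 1728) and KO:HOM livers 916 to 1880 CPM (median 1553). These groups overlapped, and KO:HOM differed from KO:WT by -0.12 (95% interval -0.38 to 0.15, adjusted p = 0.60).

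Abcb11 (chr2:69068544-69173315, minus strand) encodes the bile salt export pump, the rate-limiting step of bile salt secretion. It had 461 to 730 CPM in DN:WT (median 660), 477 to 730 CPM in DN:HET (median 610.0) and 264 to 411 CPM in DN:HOM (median 335). The DN:HOM livers lay below all DN:WT and DN:HET livers, and the change was -0.93 on the log2 scale (SE 0.12, adjusted p = 1.9e-08). Among KO livers it had 315 to 611 CPM in KO:WT (median 445), 388 to 592 CPM in KO:HET (median 536) and 325 to 457 CPM in KO:HOM (median 337), where 7 livers lay close together and animal 30 stood above them. KO:HOM was lower than KO:WT by 0.40 (SE 0.12, adjusted p = 0.011; 0.073 with all 48 livers) and lower than KO:HET by 0.57 (SE 0.12, adjusted p = 0.0014).

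Of the 10 genes, Abcb11 and Slco1b2 share a sequence feature: an inverted repeat of GGNCA and TGNCC with 1 base between them, the shape of an FXR site (IR1), within 250 bases upstream of a RefSeq start. Both strands were searched, and it was held by 0.575% of 32851 such windows in the RefSeq table. The stretches are printed 5′ to 3′ on the gene's strand with the repeat in capitals, from chr2:69173002-69173031 and chr6:141575148-141575177 (GRCm39).
Abcb11: tggactttaGGCCATTGACCtataagcaaa
Slco1b2: atttgtgtaGGACAGTGACCtgaagagata
The repeat lies 62 to 52 bases before the Abcb11 start and 87 to 77 bases before the Slco1b2 start; GENCODE places the Abcb11 start farther upstream, so that the stretch is in its first exon there. Windows were found for 9 members, with none for Abcc3. Abcb11 and Slco1b2 were both lower in DN:HOM livers by nearly the same log2 amount, where 30% of all genes were lower. Slc10a1 and Slco1a1, whose windows lacked the repeat, fell more. In KO:HOM livers Abcb11 was lower, a call lost with all 48 livers (edgeR, adjusted p = 0.073), and Slco1b2 did not pass. Whether the repeat bears on these changes was not tested. Direct repeats of GGTCA with 5 bases between the copies, the spacing of an LXR site (DR4), or with 2 bases between them, the spacing of an HNF4α site (DR1), were in no member's window and in 0.0639% and 0.164% of all windows. A match is a description of the sequence, and binding was not measured.

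Abcb4 (chr5:8943604-9011999, plus strand), the phosphatidylcholine floppase, was the member that did not pass in either study. It had 360.3 to 511 CPM in DN:WT (median 459), 323 to 541 CPM in DN:HET (median 430) and 362 to 456 CPM in DN:HOM (median 416). KO:WT livers had 199.7 to 414 CPM (median 332), KO:HET livers 285 to 387 CPM (median 338) and KO:HOM livers 251 to 437 CPM (median 345). All groups of a study overlapped. The differences of HOM from WT were -0.06 (95% interval -0.29 to 0.17, adjusted p = 0.69) in DN and 0.04 (95% interval -0.17 to 0.26, adjusted p = 0.82) in KO. When levels were scaled by library size only, and not by TMM factors, it was higher in DN:HOM by 0.37 (adjusted p = 0.0024), a scaling that moved the median of all genes from -0.01 to 0.42, so that relative to that median it was slightly lower.

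Abcc2 (chr19:43770631-43829179, plus strand) had 826 to 1177 CPM in DN:WT (median 1021), 698 to 1053 CPM in DN:HET (median 864) and 570 to 899 CPM in DN:HOM (median 716), with overlap between neighbouring genotypes. The change from WT to HOM was -0.46 on the log2 scale (SE 0.09, adjusted p = 1.6e-05). Scaled by library size only, this change was -0.03 and did not pass (adjusted p = 0.76), while the median of all genes moved from -0.01 to 0.42. It had 853 to 1081 CPM in KO:WT (median 983), 912 to 1041 CPM in KO:HET (median 990) and 784 to 1016 CPM in KO:HOM (median 858), again with overlap, and KO:HOM differed from KO:WT by -0.20 (95% interval -0.36 to -0.04, adjusted p = 0.075).

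Abcc3 (chr11:94233874-94283823, minus strand), a basolateral exporter of glucuronides and bile salts, was the member that went opposite ways in the studies. It had 313 to 398 CPM in DN:WT (median 336), 309 to 441 CPM in DN:HET (median 351) and 248 to 321 CPM in DN:HOM (median 279). KO livers had 185 to 439 CPM in KO:WT (median 319), 256 to 440 CPM in KO:HET (median 383) and 378 to 614 CPM in KO:HOM (median 544). The DN decrease of 0.28 (SE 0.12, adjusted p = 0.046) passed by a narrow margin and failed with DESeq2 (adjusted p = 0.068), upper-quartile scaling (0.17), all 48 livers (0.30) or another low-count filter. With library size alone its sign turned (0.15, adjusted p = 0.22). That scaling moved the median of all genes from -0.01 to 0.42, so that relative to the median Abcc3 was still lower. The KO increase of 0.68 (SE 0.11, adjusted p = 3.0e-05) passed in every alternative run. The difference between the studies was -0.95 (SE 0.17, adjusted p = 1.3e-05), and it passed also with all 48 livers (-0.84, adjusted p = 0.0037).

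Abcc4 (chr14:118720103-118943924, minus strand), which exports bile acids with glutathione and cyclic nucleotides, was low in wild-type liver and rose in DN:HOM. It had 0.283 to 1.71 CPM in DN:WT (median 1.43, at most 24 reads), 0.453 to 4.57 CPM in DN:HET (median 1.76) and 4.04 to 11.04 CPM in DN:HOM (median 7.91, up to 230 reads). All DN:HOM livers were above all DN:WT livers, though DN:HET animal 4, at 4.57 CPM, lay within the DN:HOM range. The change was 5.90-fold, 2.56 on the log2 scale (SE 0.36, adjusted p = 7.8e-08), and 1.77 with all 48 livers (adjusted p = 0.00063). The KO medians were 1.62, 2.08 and 2.91 CPM with ranges of 1.15 to 4.49, 0.806 to 4.63 and 1.14 to 5.40 CPM, and the increase in KO:HOM was 0.64 (95% interval -0.01 to 1.29, adjusted p = 0.18). Without KO:WT animal 23, which had the 4.49 CPM, this increase was 0.92 and passed (adjusted p = 0.043).

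Slc51b (chr9:65319995-65330597, minus strand), a gene induced by FXR, was near the limit of detection except in DN:HOM. It had 0.141 to 1.07 CPM in DN:WT (median 0.405), 0.221 to 1.03 CPM in DN:HET (median 0.547) and 1.13 to 3.31 CPM in DN:HOM (median 2.94). In the KO groups it lay between 0 and 1.02 CPM with medians of 0.403, 0.328 and 0.316 CPM, and 4 livers had 0 reads. No DN:HET or KO liver had more than 16 reads. The change in DN:HOM was 5.79-fold, 2.53 on the log2 scale (SE 0.49, adjusted p = 1.8e-05), and the change in KO:HOM was -0.12 (95% interval -1.19 to 0.95, adjusted p = 0.91). DN:WT animal 10 had the highest value of all livers, 4.76 CPM, and with it and animal 12 under their labels the DN change was 1.22 (adjusted p = 0.060). The partner subunit Slc51a was too low to be tested, with group means of 0.257 CPM in DN:WT and 0.298 CPM in DN:HOM.

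Sites of the form TGACNNNGC, the core of an NRF2 site, were searched in the same windows on both strands and were held by 10.2% of them. Among the members they were in the window of Abcc2 and in both windows of Abcc4, which has a RefSeq start at each of 2 places. No member's window held both this site and the inverted repeat. The stretches are shown because these genes went opposite ways in DN:HOM livers. They come from chr19:43770639-43770668, chr14:118943637-118943666 and chr14:118914347-118914376 (GRCm39), with the site in capitals, and the second Abcc4 line is from the downstream start. In GENCODE the Abcc2 stretch and the first Abcc4 stretch lie within an exon.
Abcc2: ctcactgggaTGACATAGCattcatctagc
Abcc4: gccccgagagGCGGGGTCAgggcgggccgg
Abcc4: aataatctcgTGACTCTGCcgtggtggata
Of 8 NRF2 target genes, 7 rose in DN:HOM and none fell, with a median of 0.90, and 4 rose in KO:HOM with a median of 0.52. The share of all genes that rose was 29.1% in DN:HOM and 11.5% in KO:HOM. With all 48 livers 6 rose in DN:HOM and 2 in KO:HOM. Srxn1 rose by 1.55 (adjusted p = 1.6e-08) and Nqo1 by 1.29 (adjusted p = 1.7e-06) in DN:HOM, whereas the mRNA of NRF2 itself, Nfe2l2, fell by 0.34 (adjusted p = 0.023).

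No member passed in heterozygous livers. In DN:HET against DN:WT 0 of 10 were called, where 2.30% of all genes were, and the largest of the changes were those of Abcc4 (0.66, adjusted p = 0.45) and Slco1a4 (0.51, adjusted p = 0.29). In KO:HET against KO:WT 0 of 10 were called against a background of 0.0191%, and Slco1a4 had the largest change (0.76, 95% interval 0.34 to 1.18, adjusted p = 0.46). DESeq2, at an adjusted p under 0.05, also called 0 in each. At an unadjusted p under 0.05 edgeR gave 2 members in DN:HET (Slco1a4 and Abcc2), where 13.3% of all genes were under it, and 1 in KO:HET (Slco1a4), where 6.24% were. Set against heterozygotes, DN:HOM livers differed in 9 members, in the same directions as against DN:WT (background 53.9%; with all 48 livers 8 of 10 and 46.4% of all genes, Abcc2 having an adjusted p of 0.082), and KO:HOM livers in 3, with Slco1a4 and Abcc3 higher and Abcb11 lower (background 10.6%).

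To set uptake beside basolateral efflux in 1 liver, the mean log2 CPM of the 4 uptake genes was subtracted from that of the 3 efflux genes, each gene centred on the wild-type livers of its study. This difference was -0.63 to 0.48 in DN:WT (median -0.06), -0.47 to 1.17 in DN:HET (median 0.44) and 1.48 to 3.71 in DN:HOM (median 3.03). No DN:HOM liver overlapped the other DN livers. In DN:HOM the uptake mean was lower by 0.60 to 1.98 and the efflux mean higher by 0.88 to 1.90 in every liver. The efflux mean weights its 3 genes alike and rose through Abcc4 and Slc51b, at medians of only 1.43 and 0.405 CPM in DN:WT. The median of Abcc3, by far the most abundant of the 3, went down from 336 CPM in DN:WT to 279 CPM in DN:HOM. In the KO study the efflux minus uptake difference was -0.85 to 1.65 in KO:WT (median -0.13) and -0.88 to 1.46 in KO:HET (median 0.22). It was -0.84 to 1.58 in KO:HOM (median 0.76), and the groups overlapped over nearly their whole range. The highest KO:WT value, 1.65, was that of animal 23 and the highest KO:HET value, 1.46, that of animal 9, so a low uptake and high efflux mean also occurred without homozygosity. Against the same centre DN:WT animal 10 had 3.12 and DN:HOM animal 12 had -0.29. With all 48 livers, centred on all wild types, DN:HOM ran from -0.68 to 3.31 (median 2.58) and DN:WT from -1.02 to 2.73, so that these groups overlapped.

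**Figure D3:**
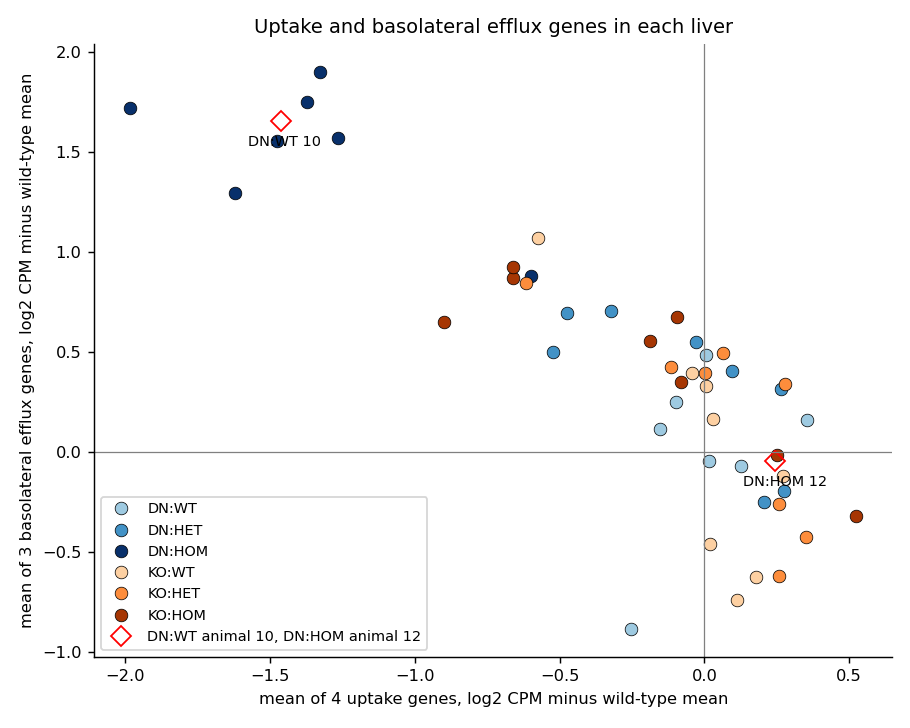
Mean of the 3 basolateral efflux genes against the mean of the 4 uptake genes in each liver, both as log2 CPM minus the wild-type mean of the study. Of the DN:HOM livers 6 lie at the upper left, with uptake means below -1.2 and efflux means above 1.2, animal 33 lies nearer to zero, and the KO livers spread along the same diagonal around zero.

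The DN:HOM livers were not uniform. Animal 33 had the highest Slc10a1 (188 CPM), Slco1a1 (61.6 CPM), Slco1b2 (1117 CPM) and Abcb11 (411 CPM) and the lowest Abcc4 (4.04 CPM) and Slc51b (1.13 CPM) of its group, yet also the highest Slco1a4 (107 CPM). Leaving it out left the same number of members called, 9, where 58.9% of all genes were called. Among DN:HET livers, animals 4 and 22 had the lowest Slc10a1 (318 and 274 CPM) and the highest Abcc4 (4.57 and 3.10 CPM), with Slc51b at 0.563 and 0.469 CPM.

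**Figure D4:**
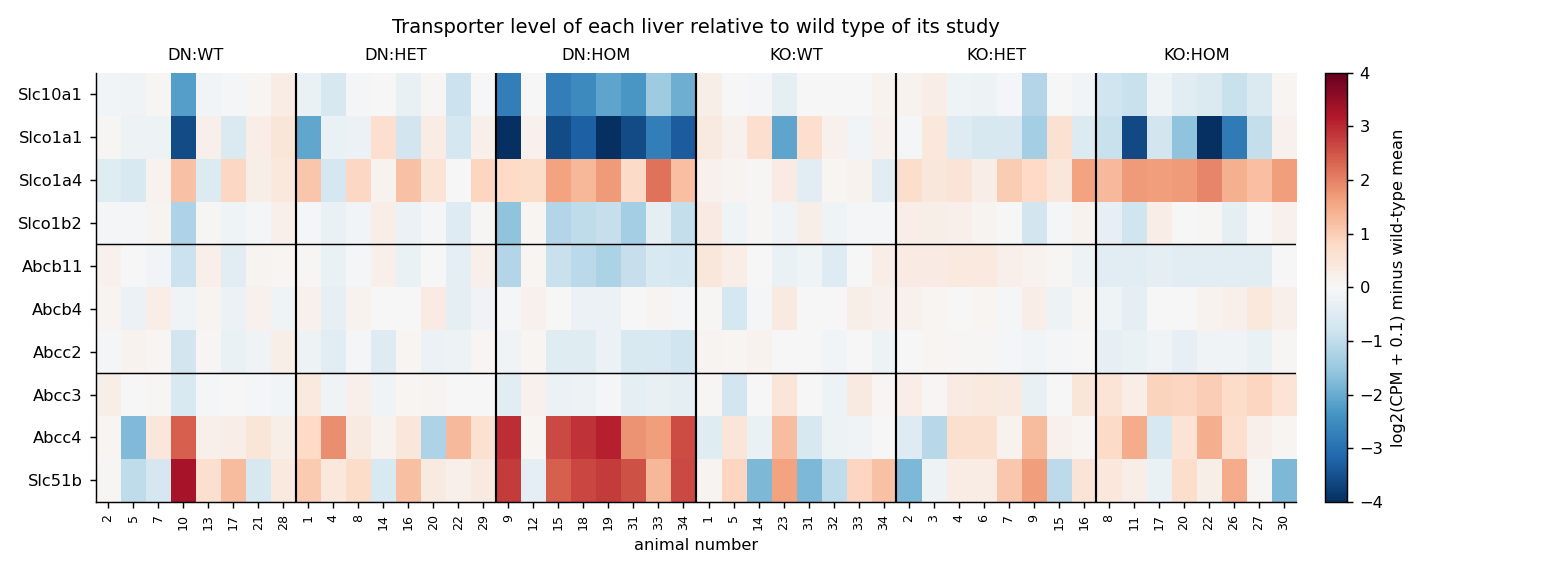
Level of each transporter in all 48 livers as log2(CPM + 0.1) minus the wild-type mean of the study; columns are animals by number within a group, rows are genes by role, red is higher and blue lower. DN:WT animal 10 has the pattern of the DN:HOM columns and DN:HOM animal 12 that of the DN:WT columns, and Slco1a4 is red across the KO:HOM columns.

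The change in DN was larger than in KO, or opposite to it, in 7 of 10 members by the test of the difference itself, where 34.7% of all genes passed. The differences were -1.67 for Slc10a1 (adjusted p = 6.4e-07), -2.09 for Slco1a1 (0.0039), -0.89 for Slco1b2 (0.00049), -0.53 for Abcb11 (0.011), -0.95 for Abcc3 (1.3e-05), 1.92 for Abcc4 (0.0019) and 2.65 for Slc51b (0.0040) on the log2 scale. With all 48 livers only that of Abcc3 passed, and 10.5% of all genes did. Slco1a4, Abcb4 and Abcc2 did not pass. The allele, the site and the littermates differ together between the studies and cannot be told apart: of the wild-type livers alone, DN:WT had lower Slco1a4 (-1.20, adjusted p = 0.00031) and higher Abcb11 (0.47, adjusted p = 0.0060; 0.072 with all 48 livers) and Abcb4 (0.37, adjusted p = 0.025) than KO:WT, against 12% of all genes called. Slc10a1 did not pass between the wild types (-0.41, adjusted p = 0.11), though it did in an alternative run (adjusted p = 0.0068).

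Per kilobase of merged exon, the order of median levels in DN:WT livers was Slco1b2 (214 CPM per kb), Slc10a1 (143), Abcb11 (119), Abcc2 (117), Slco1a1 (82.8), Abcc3 (56.3), Abcb4 (33.9), Slco1a4 (3.12), Slc51b (0.378) and Abcc4 (0.166). The neighbours Abcb11 and Abcc2 were within the spread of their livers. In DN:HOM livers Slco1b2 still led with 109 CPM per kb, followed by Abcc2 with 82.3, and Slc10a1 fell to 29.7, below Abcc3 (46.8) and beside Abcb4 (30.8). Although they rose, Slc51b and Abcc4 reached 2.74 and 0.916 CPM per kb, which stayed far below Abcc3. In KO:HOM livers the order was led by Slco1b2 (241), Slc10a1 (132), Abcc2 (98.5) and Abcc3 (91.1).

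Over the 46 livers, the genes nearest to each member in centred log2 CPM were sought among 11716 genes. Nearest to Slc10a1 was Car5a, with a root mean square difference of 0.22 where the SD of Slc10a1 was 0.93, then Hpd (0.25) and Mfsd4b1 (0.27). Slco1b2 was nearest to Ghr (0.16; SD 0.49), Abcb11 to Lgals9 (0.20; SD 0.42), and Slco1a1 to Slc22a28 (0.47; SD 1.53). The nearest gene was Fhip2a for Abcc2 (0.14; SD 0.23), Pals2 for Abcb4 (0.16; SD 0.27) and Entpd5 for Abcc3 (0.21; SD 0.35). For Slco1a4 (Cyp2a5, 0.60; SD 1.03), Abcc4 (Anxa3, 0.55; SD 1.02) and Slc51b (Snhg18, 0.66; SD 1.26) no gene came closer than about 0.5.

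Among 21 other hepatic transporters 18 could be tested: 5 rose and 11 fell in DN:HOM (median -0.51), and 4 rose and 4 fell in KO:HOM (median -0.04). Of all genes 29.1% rose and 30% fell in DN:HOM, and 11.5% rose and 7.87% fell in KO:HOM. With all 48 livers the DN counts were the same, and in KO:HOM 4 rose and 2 fell, without Atp8b1 (adjusted p = 0.074) and Abcg8 (adjusted p = 0.071). The multidrug exporters Abcb1a (2.12 in DN, adjusted p = 6.3e-06; 1.32 in KO, adjusted p = 0.0041) and Abcc1 (2.21, adjusted p = 4.7e-08; 1.66, adjusted p = 6.4e-05) and the anion exporter Abcc5 (1.85, adjusted p = 3.8e-06; 1.27, adjusted p = 0.0020) rose in both studies. Slc22a7, the organic anion carrier OAT2, fell by 3.56 (adjusted p = 1.3e-11) and Slco2b1 fell by 1.41 (adjusted p = 3.1e-17) in DN:HOM, while in KO:HOM their changes of -0.58 and -0.16 did not pass. The canalicular flippase Atp8b1 and its partner Tmem30a fell in both studies, by 0.39 and 0.38 in DN and by 0.25 and 0.40 in KO. The sterol exporters Abcg5 and Abcg8, known LXR targets, fell by 2.82 and 2.78 in DN and by 1.04 and 0.87 in KO.

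Of 11 genes for the scaffold and trafficking of canalicular carriers, 5 rose and 4 fell in DN:HOM, and 2 rose in KO:HOM. With all 48 livers these counts were 5, 3 and 1. The background for the lists of this paragraph was 29.1% of all genes higher and 30% lower in DN:HOM, and 11.5% higher and 7.87% lower in KO:HOM. The membrane linker Ezr rose by 2.35 (adjusted p = 1.3e-10) and the membrane fusion protein Stx3 by 2.10 (adjusted p = 2.4e-07), while radixin, Rdx, the linker of the canaliculus, fell by 0.56 (adjusted p = 9.5e-06). Of 12 regulators, 8 fell in DN:HOM and none rose. Nr1h4, which encodes FXR, fell by 0.66 (adjusted p = 5.5e-06) and its target Nr0b2 (SHP) by 0.63 (adjusted p = 0.035; 0.097 with all 48 livers, where 7 regulators fell); Ppara fell by 1.47, and Hnf4a changed by -0.15 (adjusted p = 0.26). In KO:HOM Klb, the FGF co-receptor, fell by 0.79 and Hnf4a by 0.35 (adjusted p = 0.014), and Nr1h4 changed by -0.12 (adjusted p = 0.47). Of 8 genes of bile acid synthesis and conjugation 7 fell in DN:HOM (median -1.38) and 1, Cyp27a1, fell in KO:HOM (adjusted p = 0.012; 0.14 with all 48 livers). Cyp8b1, the sterol 12α-hydroxylase, fell by 2.77 (adjusted p = 9.8e-10) and Cyp7a1, the rate-limiting enzyme, by 1.81 (adjusted p = 6.2e-05) in DN:HOM.

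Markers of other cell types moved with the transporters, and in whole liver fewer hepatocytes and less mRNA per hepatocyte cannot be told apart. The summed level of 8 hepatocyte markers was 74920 to 92510 CPM in DN:WT and 50540 to 59820 CPM in DN:HOM, where 5 fell, 1 rose and the median change was -0.77. It was 89570 to 116100 CPM in KO:WT and 66790 to 88730 CPM in KO:HOM, where 4 fell and the median change was -0.30. With all 48 livers the DN counts of hepatocyte markers were the same, and 1 fell in KO:HOM. The 8 cholangiocyte markers summed to 43.6 to 81.2 CPM in DN:WT and 749 to 1091 CPM in DN:HOM, and all 7 that could be tested rose, with Epcam at 4.004 (adjusted p = 3.9e-13) and Krt19 at 3.58 (adjusted p = 1.7e-10); in KO:HOM, at 51.7 to 197 CPM against 36.7 to 116 CPM, 1 of 7 rose (Spp1, by 1.42). With all 48 livers 6 of 7 rose in DN:HOM and 0 in KO:HOM. Of the 8 macrophage markers 7 rose and 1 fell in DN:HOM (median 3.15) and 6 rose and 1 fell in KO:HOM (median 1.83), and of the 8 stellate and fibroblast markers 7 and 5 rose. All 3 neutrophil markers tested rose in DN:HOM and 2 in KO:HOM, 2 and 4 of the 4 T cell markers rose, and of the 4 B cell markers 1 and 0 fell. Of 5 endothelial markers 1 rose and 3 fell in DN:HOM, and 1 rose and 1 fell in KO:HOM. The background was 29.1% of all genes higher and 30% lower in DN:HOM, and 11.5% higher and 7.87% lower in KO:HOM. Many of these marker calls were lost with all 48 livers. In DN:HOM 6 macrophage, 7 stellate and fibroblast, 2 neutrophil and 0 T cell markers then rose, 0 B cell markers fell, and of the endothelial markers 0 rose and 3 fell. In KO:HOM 4 macrophage, 1 stellate and fibroblast, 0 neutrophil and 4 T cell markers rose, no macrophage marker fell, and the endothelial counts were as with 46 livers. Bile duct cells also express Abcc3, Abcc4 and Slc51b, and the part of these cells in the rise of Abcc4 and Slc51b was not tested. Of 5 male-biased liver genes, 4 fell and 1 rose in DN:HOM, where Hsd3b5 fell by 5.84 (adjusted p = 1.4e-06) and Mup20 rose by 1.19 (adjusted p = 0.00029); they are given because Slco1a1 is male-biased, and their relation to it was not tested.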

How the data were processed

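Liver mRNA was sequenced as stranded poly(A) libraries. The authors aligned the reads with STAR 2.5.0a to GRCm39 (annotation 104 in the methods) and deposited, for each liver, raw read counts of every gene, unstranded and per strand; the fourth column, whose total was 6.97 to 8.62 times that of the third, was used. The 4 summary lines were left out (reads naming no gene, 24.0% to 35.0%). Symbols and positions came from GENCODE for 54749 identifiers (98.8%). Members and lists were chosen with earlier results of these data known.

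Counts of 46 livers were fitted in edgeR 4.0.16 (R 4.3.3): filterByExpr, TMM factors, 6 group means, quasi-likelihood F tests, Benjamini-Hochberg adjustment over 15711 genes, threshold 0.05. SE was taken as the log2 fold change over the root of F, and 95% intervals from the normal distribution. The study used DESeq2. CPM used TMM factors over 48 livers; log2 CPM used a prior count of 2. Numbers limit precision: at 0.3 CPM a gene rests on few reads. All intervals are for the difference of group means, with an SE that rests on the spread between mice, and do not span single mice. On simulated counts of 15711 genes (DN:HOM against DN:WT) the test called 79.0% of 2-fold changes (100 genes) and 94.9% of 4-fold changes (98 genes). It also called 15 of 15143 unchanged genes. In the livers this comparison called 59.1% of all genes, and the rate of calls with that many genes changed was not tested. Alternatives were all 48 livers, DESeq2 1.42.0, other scalings and filters, unstranded counts and subsets of livers. RefSeq promoter windows (GRCm38.p6) were placed on GRCm39 by exact match. Genes named are Nr1h3, the members, those of 5 lists and of cell markers, and the 3 genes nearest each member; within lists, examples were picked after their values were seen. Some genes of the lists are not reported here by name.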

Additional observations from a re-analysis of the deposited data

Results flagged for a closer look

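Of 60 sets of 8 livers (10 members in 6 groups, on log2 CPM), 13 held a liver set apart from the other 7 by a gap large for the range of the set; chance gives this in about 1 of 20 sets. DN:WT animal 10 stood apart for Slc10a1 (108 CPM), Slco1a1 (35.3 CPM), Slco1b2 (607 CPM) and Abcc3 (221 CPM), all lowest of the group. DN:HOM animal 12 stood apart for Slco1a1 (472 CPM, highest), Abcc4 (1.26 CPM, lowest) and Slc51b (0.280 CPM, lowest). In KO:WT, animal 23 was lowest for Slc10a1 (506 CPM) and Slco1a1 (106 CPM) and animal 5 for Abcb4 (199.7 CPM). KO:HET animal 9 was lowest for Slc10a1 (293 CPM) and Slco1b2 (947 CPM), and KO:HOM animal 30 was highest for Abcb11 (457 CPM).

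The homozygous change differed between the DN and KO studies, by the test of the difference, for Slc10a1 (-1.67), Slco1a1 (-2.09), Slco1b2 (-0.89), Abcb11 (-0.53), Abcc3 (-0.95), Abcc4 (1.92) and Slc51b (2.65), on the log2 scale. Of all genes 34.7% passed this test. With all 48 livers only Abcc3 passed among the members, and 10.5% of all genes did.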

How the results depend on the processing

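No paired analysis was possible because the replicate numbers are animal numbers, which differ between the groups of a study. Over 8 comparisons and the alternatives run, 761 of 794 member values kept their direction where called and their side of the threshold, 24 lost their call, 4 gained one and 5 reversed. All 48 livers accounted for 13 of the lost calls: 2 in place of 5 members passed in KO:HOM against KO:WT, and 1 in place of 7 in the difference between the studies, while the share of all genes called fell from 19.4% to 12.9% and from 34.7% to 10.5%. Library size alone, which moved the median of all genes from -0.01 to 0.42 in DN:HOM against DN:WT and the calls from 4579 higher and 4713 lower to 9283 and 1738 (in KO:HOM from 1811 and 1237 to 2622 and 437, and to 1933 and 847 with upper-quartile scaling), left 3 members called in KO:HOM against KO:WT and reversed Abcb4 (0.37) and Abcc3 (0.15) against DN:WT and Abcb4 (0.34), Abcc2 (0.093) and Abcc3 (0.031) against DN:HET. The median efflux minus uptake difference of DN:HOM, 3.03, was 4.03 without Slco1a4 and 3.93 without Abcc3, both tried after seeing the data, 2.66 without Slc51b, and 2.58 with all 48 livers, where DN:HOM overlapped DN:WT. Abcc2 passed in KO:HOM without animal 30 (-0.24, adjusted p = 0.035) or with the KO study fitted alone (-0.20, adjusted p = 0.027). Slco1a1 in KO:HOM failed with its pair of groups fitted alone (adjusted p = 0.060), and Slc10a1 (0.051) and Abcb11 (0.071) there failed with library size alone. Abcc2 in DN:HOM failed with library size alone (-0.03, adjusted p = 0.76), and against DN:HET with that pair of groups fitted alone (adjusted p = 0.068). The difference between the studies in Abcb11 failed with library size alone (adjusted p = 0.27), and Abcb4 in DN:WT against KO:WT with the pair alone (adjusted p = 0.066). Slc10a1 in DN:WT against KO:WT gained a call in an alternative run (adjusted p = 0.0068). The cause of these shifts was not tested. Depth limits Abcc4 and Slc51b, which rest on few reads outside DN:HOM.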
